A study of Mus musculus with 4 samples.

Results

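The Sfmbt2 intron cluster is a tandem array of microRNA (miRNA) genes of the miR-297, miR-466, miR-467 and miR-669 families on the plus strand of mouse chromosome 2. Members were taken by position: every mature entry of the count table that starts in the region of Sfmbt2 on that strand (build mm10), with copies of an entry summed by their ID. This gave 139 table entries for 70 mature miRNAs, out of 2110 entries for 1966 mature miRNAs in all. Of the 70 members, 6 are miR-297, 25 miR-466, 10 miR-467 and 29 miR-669, and 33 are 5p and 37 are 3p arms. The small RNA libraries came from extracellular vesicles, the membrane particles that cells shed with RNA inside, collected by differential centrifugation from C2C12 cells, a mouse myoblast line. The series asked how vesicle miRNAs differ between healthy and damaged muscle cells. All libraries carry the genotype label WT, the tissue label muscle and the same medium with 10% bovine serum; 2 came from cells damaged with hydrogen peroxide (damaged) and 2 from cells whose treatment label is also WT. The labels used here state neither dose nor duration of the peroxide treatment. C2C12 is 1 cell line. Whether replicates are separate cultures is not stated, and p-values then reflect only how far these samples differ, a spread that may be technical.

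Sfmbt2 encodes a Polycomb group protein and is expressed mainly from the paternal allele in extraembryonic tissue of the mouse. The miRNAs in its large intron arose in rodents by duplication of a repeat, and they are known from embryonic stem cells, trophoblast and placenta. A miRNA finds its targets mainly through its seed, bases 2 to 8, so members that share a seed can share targets even where the rest of the sequence differs.

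The following mature miRNAs lie elsewhere in the genome and carry the seed of a member, and are shown because those 3 members bear on the main contrast of the cluster. miR-467h, 1 edit from miR-467e-5p, has its seed; miR-466j, 1 edit from miR-669m-5p, has the seed of that member; and miR-290a-3p, of the stem cell and trophoblast miR-290 cluster, has the seed of miR-467a-5p. Sequences are from RefSeq (GRCm38.p6), 5′ to 3′, with the seed in capitals, at chr9:115381898-115381919 (plus strand), chr10:60960802-60960824 (plus strand) and chr7:3218674-3218697 (plus strand), in the order printed.
miR-467h: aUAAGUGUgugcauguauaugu
miR-466j: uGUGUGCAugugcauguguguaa
miR-290a-3p: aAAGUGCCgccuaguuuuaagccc
The first 2 are rich in UG steps, as the cluster's 5p arms are: a 5p member held a median of 11 UG or GU steps, and a 3p member a median of 10 AC or CA steps. miR-467h had 0 and 1 counts in WT and 1 and 0 in damaged, and miR-466j and miR-290a-3p had 0 in every library. Counts of the seeds of miR-467e-5p, miR-669m-5p and miR-467a-5p thus came almost wholly from the cluster among the entries with a known sequence.

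The members lay between 10466677 and 10518240 of chromosome 2, a span of 51.564 kb inside 1 intron of Sfmbt2 (10461473 to 10523944, GENCODE vM21). That intron, of 62.472 kb, is intron 10 of transcript ENSMUST00000041105.6 and intron 11 of ENSMUST00000116594.8, and 0 exons of either lie within the cluster. The 70 members have 61 distinct mature sequences and 37 distinct seeds. Among them, 16 share their whole sequence with another member, such as miR-669a-5p with miR-669p-5p, and 17 have several gene copies, which take 86 entries of the table. Reads of identical or nearly identical entries cannot be assigned to a copy, and counting was without strand, although 0 member entries overlap another entry.

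Library totals were 4577668 and 7638663 counts in WT and 6901394 and 7350345 in damaged. Members with at least 1 count numbered 37 and 37 in WT and 40 and 36 in damaged, and 46 had a count in some library. The other 24 were at 0 throughout. A count of 0 is compatible with up to 3 counts in a library, which is 0.393 to 0.655 CPM (the count scaled to a common library total). Of these 24, 19 were 3p and 5 were 5p arms. A filter on low counts left 21 members to test, 18 of them 5p arms, and none of them miR-297. The 5p arms held 96.7% and 98.5% of the cluster's counts in WT and 95.4% and 96.3% in damaged.

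The cluster made up a smaller share of vesicle counts in both damaged libraries. Its counts were 3112 and 5098 in WT and 2922 and 2916 in damaged. As a share of the library this was 0.0680% (exact 95% interval 0.0656 to 0.0704) and 0.0667% (0.0649 to 0.0686) in WT. In damaged it was 0.0423% (0.0408 to 0.0439) and 0.0397% (0.0382 to 0.0411). Both damaged shares lay below both WT shares, with means of 0.0674% ± 0.000879 in WT and 0.0410% ± 0.00189 in damaged (SD, n = 2), a 1.64-fold difference. The difference in means exceeded the spread between replicates, but the smallest p an exact two-sided permutation test allows for groups of 2 is 0.333, so none was run on this share. Intervals cover counting error only, and in bulk libraries fewer vesicles with these miRNAs cannot be told apart from less of them per vesicle.

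Among single members, miR-669l-5p, miR-669m-5p and miR-467e-5p fell and none rose. edgeR's quasi-likelihood test with Benjamini-Hochberg adjustment over all 482 tested miRNAs called 3 of 21 tested members lower (14.3%), against 10.2% of all tested miRNAs called in either direction, 5.81% lower and 4.36% higher. The other 18 members did not pass. At an unadjusted p under 0.05 by edgeR, 10 members were lower (47.6%, against 16.8% of all tested) and 0 were higher (13.9% of all tested). DESeq2 and limma-voom, at an adjusted p under 0.05, also called 0 members higher. They called 20.3% and 12.0% of all tested miRNAs in either direction, and these shares were not split by direction. In 12 members both damaged libraries lay below both WT libraries (57.1%, against 29.7% of all tested), in 2 both lay above (29.7% of all tested), and 7 overlapped. The median log2 fold change of the tested members was -0.81, beside 0.064 for all tested miRNAs. No set test was run on the cluster, and members with shared reads are not independent.

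**Figure D1:**
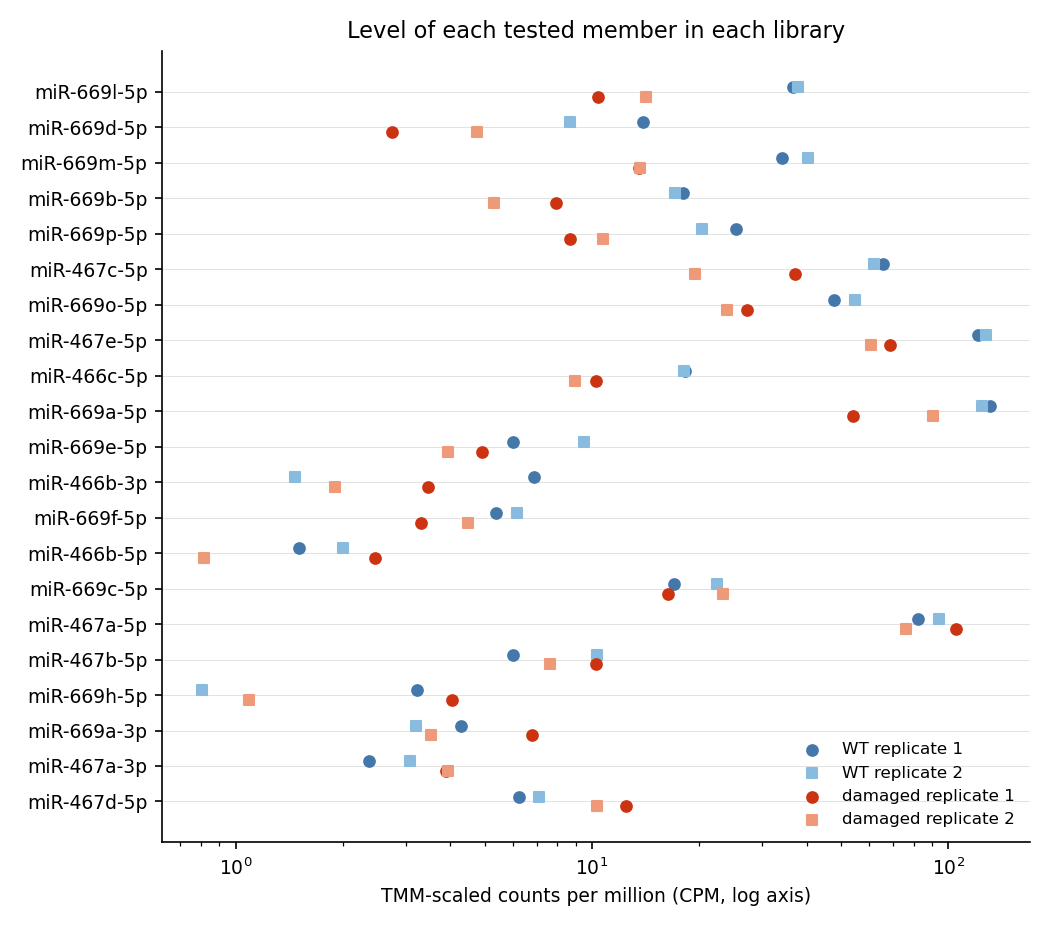
TMM-scaled CPM (log axis) of the 21 tested members in each of the 4 libraries, ordered by log2 fold change from lowest at the top. For miR-669l-5p, WT libraries sit at 36.7 and 37.9 CPM and damaged ones at 10.4 and 14.1, whereas for miR-467a-5p near the bottom the groups overlap.

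miR-669l-5p (MIMAT0009418, chromosome 2, 10468989 to 10469010) had 36.7 and 37.9 CPM in WT and 10.4 and 14.1 CPM in damaged, from 171, 283, 72 and 104 counts. Both damaged libraries were well below both WT libraries and the groups did not overlap. Its mean fell 3.03-fold, from 37.3 ± 0.830 to 12.3 ± 2.65 CPM (SD, n = 2), and edgeR gave a log2 fold change of -1.60 (SE 0.30) at adjusted p = 0.0369. miR-669l-5p is 1 edit from miR-669d-5p, and 1 of 4 members with the seed it shares with miR-669a-5p, miR-669p-5p and miR-669f-5p.

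miR-669m-5p (MIMAT0017346, 2 copies, the first at 10512814 to 10512836) had 34.1 and 40.4 CPM in WT and 13.6 in each damaged library. The damaged libraries were level with each other and the groups were apart. The mean went from 37.3 ± 4.45 to 13.6 ± 0.0162 CPM (SD, n = 2), and edgeR put the log2 fold change at -1.46 (SE 0.27), adjusted p = 0.0369. Its sequence is identical to that of miR-466m-5p, an entry at 0 in all libraries, while the 2 miR-669m copies held 77 and 82 counts in WT replicate 1, 151 each in WT replicate 2, 40 and 54 in damaged replicate 1, and 45 and 55 in damaged replicate 2. Counts were thus near each other in the miR-669m copies and absent from miR-466m, and the label of this sequence cannot be settled from the counts.

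miR-467e-5p (MIMAT0005293, 10505731 to 10505752), the second most counted member, had 121 and 128 CPM in WT and 68.7 and 60.8 CPM in damaged. Each damaged library held about the same level, below both WT libraries. The mean fell 1.92-fold, from 124 ± 4.84 to 64.8 ± 5.63 CPM (SD, n = 2), and edgeR gave a log2 fold change of -0.94 (SE 0.18) at adjusted p = 0.0369. No other member has its seed, which is the one printed for miR-467h.

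On 3 libraries, where the lone sample of a group is assumed to vary like the other group, edgeR called almost nothing in the whole table: 0, 0, 1 and 15 miRNAs without WT replicate 1, WT replicate 2, damaged replicate 1 and damaged replicate 2. No member passed in any of these sets, which therefore says little about them. The median log2 fold change of the members tested on 4 libraries was -0.91, -0.92, -1.09 and -0.80 in the same order. The log2 fold changes ranged from -1.86 to -1.47 for miR-669l-5p, from -1.69 to -1.38 for miR-669m-5p and from -1.10 to -0.87 for miR-467e-5p over these sets. DESeq2 on 3 libraries called 1, 0, 2 and 1 members lower, out of 23, 22, 25 and 25 tested, beside 9.48%, 11.8%, 13.5% and 11.3% of all tested miRNAs in either direction. Without WT replicate 2, DESeq2 gave a median log2 fold change of -0.94 over the 21 members tested on 4 libraries. Its calls held 1, 0, 1 and 0 of the 3 members that fell on 4 libraries, and the one held was miR-467e-5p. After a correction for GC content, only miR-669m-5p passed, while miR-669l-5p stood at -1.52 on the log2 scale (edgeR, adjusted p = 0.0520) and miR-467e-5p at -0.85 (adjusted p = 0.0567).

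**Figure D2:**
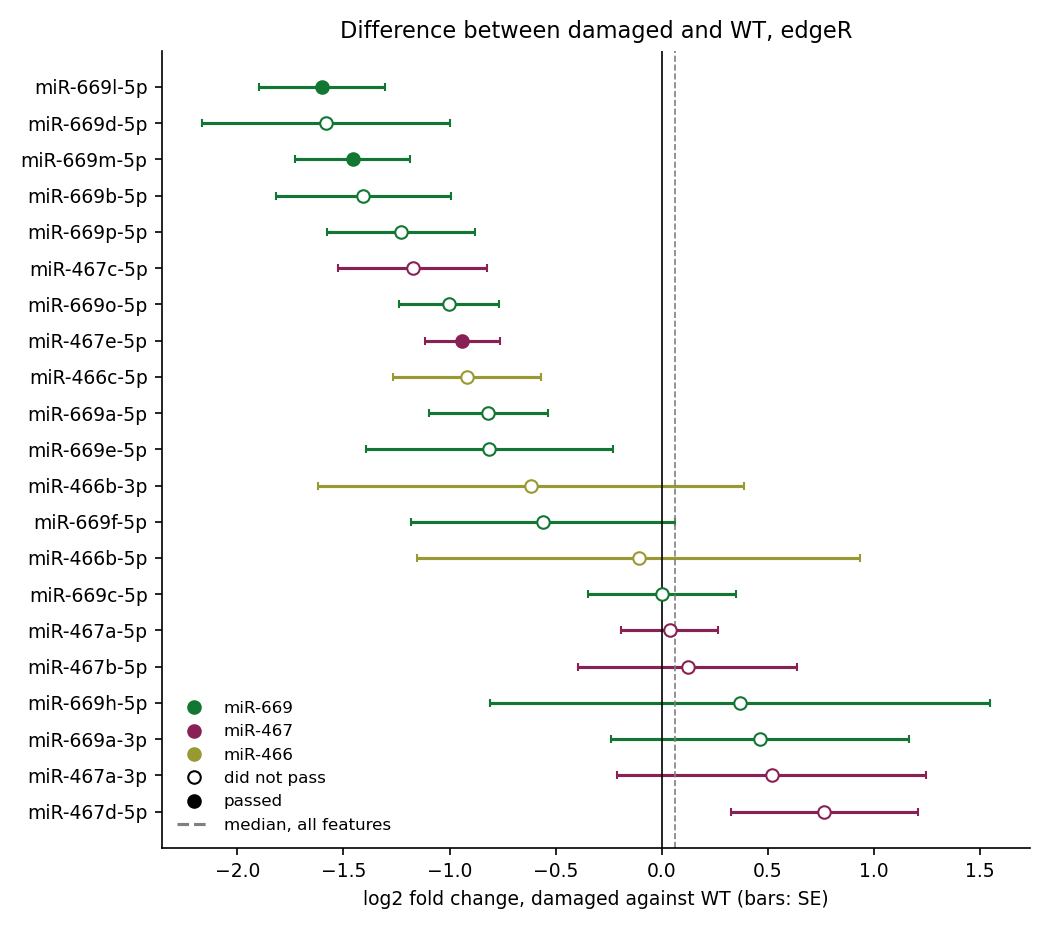
Log2 fold change of damaged against WT for the 21 tested members (points) with standard errors (bars), coloured by family; filled points passed the edgeR test at an adjusted p of 0.05. The 3 filled points, miR-669l-5p, miR-669m-5p and miR-467e-5p, lie between -1.60 and -0.94, and the dashed line marks the median of 0.064 over all 482 tested miRNAs.

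The miR-669 5p arms, the largest family of the cluster, were mostly on the lower side, although only miR-669l-5p and miR-669m-5p passed. Of 11 tested miR-669 5p arms, 9 had a log2 fold change below 0, beside 46.3% of all tested miRNAs, and their median was -1.002; miR-669c-5p, at 0.0019, went to -0.24 with upper quartile scaling. The miR-669 5p arms summed to 0.0340% ± 0.000680 of the library in WT and 0.0175% ± 0.00301 in damaged (SD, n = 2).

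miR-669a-5p, the most counted member with 12 copies, had 131 and 124 CPM in WT and 54.0 and 90.8 CPM in damaged. The damaged libraries differed from each other by more than the WT ones did, with replicate 1 lower, but the groups did not overlap. Its log2 fold change, -0.82 with SE 0.28, missed the threshold in edgeR (adjusted p = 0.119) and passed in DESeq2 (adjusted p = 0.0280). Summed with the identical miR-669p-5p, that sequence had 729 and 1081 counts in WT and 434 and 747 in damaged. On the sum, edgeR gave a log2 fold change of -0.87 (adjusted p = 0.0904). The separate values of these 2 entries are thus not independent, and each entry is counted among the miR-669 5p arms.

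miR-669p-5p had 25.3 and 20.3 CPM in WT and 8.66 and 10.7 in damaged (log2 fold change -1.23 ± 0.35 SE, adjusted p = 0.0802 by edgeR). miR-669d-5p, with 13.9 and 8.70 CPM in WT and 2.74 and 4.76 in damaged, had -1.58 ± 0.59 (adjusted p = 0.139). miR-669b-5p stood at 18.0 and 17.1 CPM in WT and 7.94 and 5.30 in damaged, at -1.41 ± 0.41 (adjusted p = 0.0836). In each of these the groups were apart, yet the spread at these counts left them above the threshold. miR-669o-5p, with 47.6 and 54.6 CPM in WT and 27.1 and 23.9 in damaged, came closest to it, at -1.002 ± 0.24 (adjusted p = 0.0580 by edgeR), and DESeq2 called it (adjusted p = 0.0286).

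The other tested miR-669 5p arms had fewer counts per library than miR-669o-5p. miR-669c-5p had 17.0 and 22.5 CPM in WT and 16.3 and 23.3 in damaged, with overlapping groups, and edgeR put the log2 fold change at 0.0019 (SE 0.35), adjusted p = 0.996. miR-669e-5p and miR-669f-5p had -0.81 ± 0.58 and -0.56 ± 0.62 from 23 to 71 counts per library, with the groups apart. miR-669h-5p, the last tested member along the cluster, had 15 and 6 counts in WT and 28 and 8 in damaged, and its groups overlapped.

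Values within the miR-467 family went apart. miR-467c-5p and miR-467e-5p were at lower levels in both damaged libraries, while miR-467a-5p, miR-467b-5p and miR-467d-5p were not. With upper quartile scaling, which lowered the median of all tested miRNAs from 0.064 to -0.16, miR-467a-5p (-0.19) and miR-467b-5p (-0.11) went below 0, close to that median. Together miR-467c-5p and miR-467e-5p held 0.0188% ± 0.000306 of the library in WT and 0.00932% ± 0.00183 in damaged (SD, n = 2). The other 3 held 0.0103% ± 0.000924 in WT against 0.0111% ± 0.00241 in damaged (SD, n = 2). This grouping was made after the values were seen, and the difference between these groups was not tested.

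miR-467c-5p had 65.7 and 62.0 CPM in WT and 37.1 and 19.4 CPM in damaged. Damaged replicate 2 was the lowest and the groups did not overlap. At a log2 fold change of -1.17 (SE 0.35) it missed the threshold in edgeR (adjusted p = 0.0836) and passed in DESeq2 (adjusted p = 0.0258). miR-467a-5p, with 10 copies, had 82.2 and 94.2 CPM in WT and 105 and 76.1 CPM in damaged. The damaged libraries lay on either side of the WT ones, and edgeR gave a log2 fold change of 0.038 (SE 0.23) at adjusted p = 0.955. miR-467b-5p, from 28, 77, 71 and 56 counts, also overlapped, at 0.12 ± 0.51.

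miR-467d-5p (10507640 to 10507661) had 6.22 and 7.09 CPM in WT and 12.4 and 10.3 CPM in damaged. It was 1 of 2 tested members, with miR-467a-3p, whose damaged libraries both lay above WT. Its log2 fold change, 0.77 with SE 0.44, missed the threshold (edgeR, adjusted p = 0.312). miR-467c-5p and miR-467d-5p have the same seed, so the members of 1 seed stood on opposite sides of 0. The count ratio of miR-467d-5p to miR-467c-5p was 0.0948 and 0.114 in WT and 0.335 and 0.531 in damaged. That ratio does not depend on library scaling, and its groups did not overlap. Likewise, miR-467a-5p had 0.680 and 0.738 counts per count of miR-467e-5p in WT, and 1.53 and 1.25 in damaged, and in the miR-669 family miR-669c-5p had 0.462 and 0.594 counts per count of miR-669l-5p in WT and 1.57 and 1.64 in damaged. These pairs were chosen after their values were seen, and no test was made on them.

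**Figure D3:**
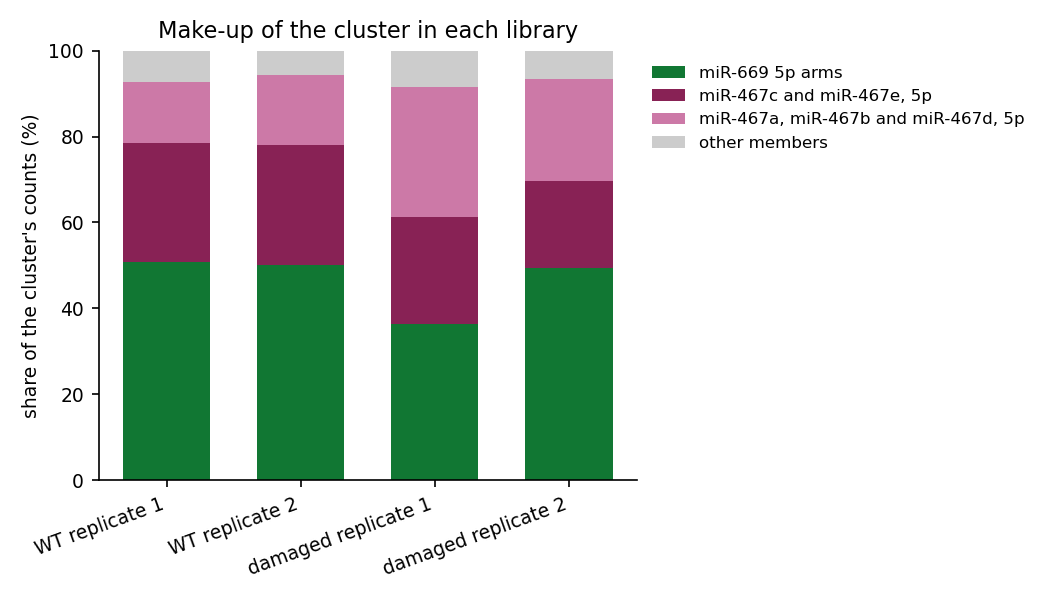
Share (%) of the cluster's counts held by the miR-669 5p arms, by miR-467c-5p with miR-467e-5p, by miR-467a-5p, miR-467b-5p and miR-467d-5p, and by all other members, 1 bar per library. The share of miR-467a-5p, miR-467b-5p and miR-467d-5p is 14.1% and 16.4% in WT and 30.3% and 23.7% in damaged.

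By whole family, miR-467 held 42.4% and 44.6% of the cluster's counts in WT and 56.4% and 45.0% in damaged. Damaged replicate 2 was thus near WT, and the shares of miR-466 and of miR-297 overlapped between groups. The grouping of miR-467 members that follows was made after the values were seen, and no test was made on these shares. miR-467a-5p, miR-467b-5p and miR-467d-5p made up 14.1% and 16.4% of the cluster's counts in WT and 30.3% and 23.7% in damaged. The miR-669 5p arms made up 50.7% and 50.2% in WT and 36.3% and 49.5% in damaged, so that share was lower mainly in damaged replicate 1. The 4 most counted members, miR-669a-5p, miR-467e-5p, miR-467a-5p and miR-467c-5p, together held 59.8% to 62.8% of the cluster in every library.

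The miR-466 family, the second largest by members, was scarce, and no tested member of it passed. miR-466c-5p, with 3 copies, had 18.2 and 18.1 CPM in WT and 10.3 and 8.97 in damaged. The groups were apart, and edgeR gave -0.92 (log2, SE 0.35) at adjusted p = 0.150. miR-466b-5p had 6 to 17 counts per library and miR-466b-3p 11 to 32, and both overlapped between groups. Among all miR-466 members together, counts were 165 and 197 in WT and 145 and 110 in damaged.

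The 3p arms, summed, overlapped between the groups, unlike the 5p arms. They had 102 and 79 counts in WT and 135 and 109 in damaged, or 0.00163% ± 0.000844 and 0.00172% ± 0.000335 of the library (SD, n = 2). miR-467a-3p stood at 2.36 and 3.08 CPM in WT and 3.90 and 3.94 in damaged, and edgeR gave a log2 fold change of 0.52 (SE 0.73) at adjusted p = 0.732. miR-669a-3p overlapped, at 0.46 ± 0.70 (adjusted p = 0.752). Both rest on 11 to 47 counts per library, and in both the SE was larger than the difference.

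Of the 25 members with counts that were not tested, the 3 with most counts were miR-297a-5p, miR-466c-3p and miR-466n-5p. The 6 miR-297 members together had 21 and 41 counts in WT and 17 and 20 in damaged. miR-297a-5p had 5 and 24 counts in WT and 7 in each damaged library. miR-466c-3p had 13 and 3 in WT and 7 and 4 in damaged, and miR-466n-5p had 8 and 10 in WT and 2 and 0 in damaged. In CPM, the groups overlapped for miR-466c-3p and lay apart for miR-466n-5p. For miR-297a-5p they lay barely apart, at 1.07 and 3.21 CPM in WT and 1.01 and 0.952 in damaged. A further copy of miR-297a-5p on chromosome 7, not summed here, had 2 and 3 counts in WT and 6 and 2 in damaged. None of these members was tested. miR-466d-3p, chosen after its values were seen, had 0 counts in both WT libraries and 8 and 10 in damaged, at least 2.40-fold higher against a floor of 3 counts per WT library.

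Along the cluster, counts fell on many entries, but reads of identical copies cannot be placed at a locus. Per entry, single-copy members stood out: miR-467e-5p at 39.1 kb from the first member, miR-467c-5p at 7.26 kb, miR-669o-5p at 47.6 kb and miR-669l-5p at 2.31 kb. Counts of a member with several copies are split over its entries. Summed over the 4 libraries, miR-669a-5p had 2582 counts and miR-467a-5p 2375, beside 2440 for miR-467e-5p. Copies of miR-669a-5p held 48 to 55 counts each in WT replicate 1, 66 to 93 in WT replicate 2, and 22 to 42 and 47 to 67 in damaged replicates 1 and 2. The 10 copies of miR-467a-5p held 26 to 46, 60 to 81, 60 to 84 and 48 to 64 in the same order. Each copy thus carried a like number, and the copies give no independent measurement of a locus.

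**Figure D4:**
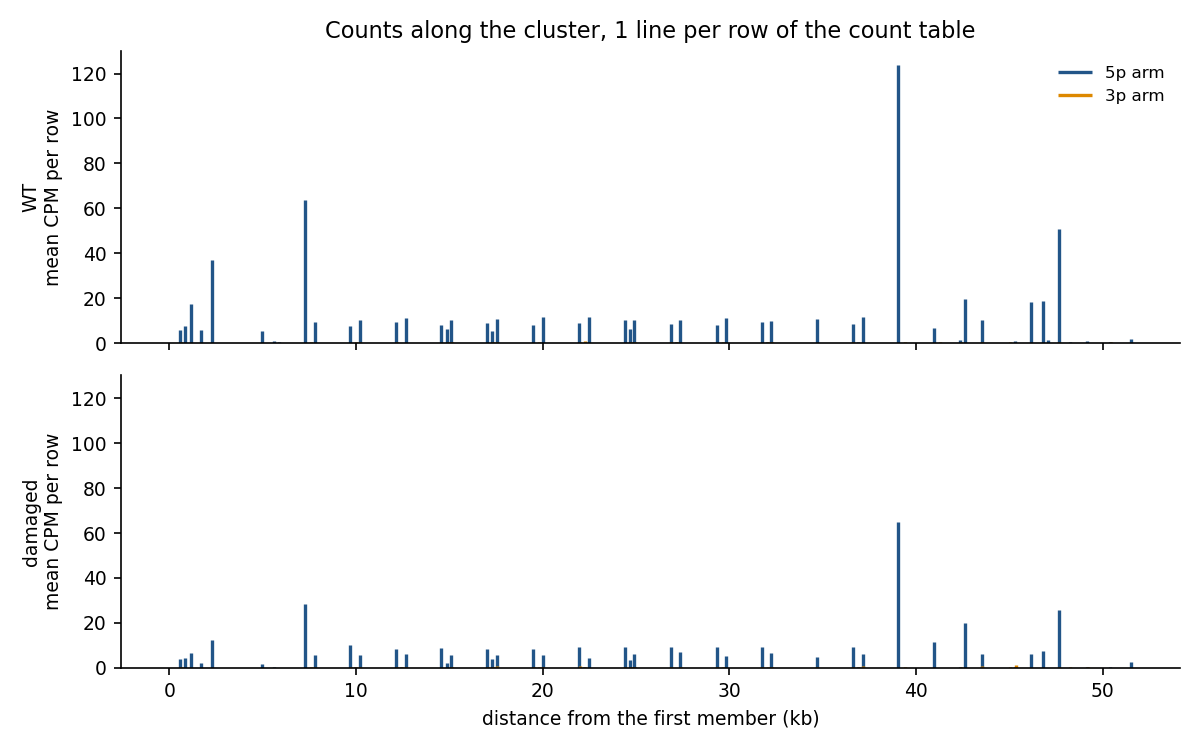
Mean CPM (scaled by library totals only) of each entry of the count table against its distance from the first member (kb), WT above and damaged below, on the same axis. The tallest line in both panels is miR-467e-5p at 39.1 kb, and the copies of miR-467a-5p lie from 9.68 to 36.6 kb.

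Tested members had a median GC content of 40.9% (31.8% to 50%), beside 47.6% for all tested miRNAs. Namesakes outside the cluster, 11 entries named for the same 4 families, had only 2 and 6 counts in WT and 7 and 2 in damaged, and none was tested. Most of these counts were of the chromosome 7 copy of the member miR-297a-5p, with 2 and 3 in WT and 6 and 2 in damaged. miR-574-5p, another miRNA with a UG repeat, had 2 and 27 counts in WT and 10 and 6 in damaged.

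Markers of cell types were read beside these results. The muscle list, with 5 of 6 miRNAs matched, took 29.6% and 33.5% of counts in WT and 35.7% and 38.3% in damaged. The labelled muscle origin thus has its markers, mostly as miR-206-3p (2689150 of 2811911 counts in damaged replicate 2). edgeR called 2 of 5 tested muscle entries higher, beside 4.36% of all tested miRNAs. It called higher 1 of 4 tested neural entries, 0 of 4 blood and liver entries, and 4 of 13 entries suspected as RNA fragments, with 2 of these 13 lower. Of 14 matched stem cell and trophoblast markers only 4 had counts, 13 and 0 in WT and 11 and 13 in damaged. They were miR-302b-3p (0 and 0 in WT, 7 and 11 in damaged), miR-294-3p (9 and 0, 4 and 0), miR-293-3p (4 and 0, 0 and 0) and miR-294-5p (0 and 0, 0 and 2). The other matched markers, both arms of miR-290a and of miR-291a among them, were at 0. The share of entries suspected as fragments of other RNA was 0.217% and 0.329% in WT and 0.671% and 0.716% in damaged, and that of neural markers (4 of 6 matched had counts) was 0.0698% and 0.0827% in WT and 0.117% and 0.157% in damaged. Blood and liver markers held 0.162% ± 0.0142 in WT and 0.151% ± 0.00445 in damaged (SD, n = 2). Epithelial markers had 0 and 22 counts in WT and 83 and 22 in damaged. The muscle list, the suspected fragments and the neural list were all higher in both damaged libraries, where the cluster's share was lower, and their part in it was not tested.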

How the data were processed

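The authors deposited raw read counts, 1 column for each library and 1 line for each mature miRNA entry. Per the file headers, the authors counted with featureCounts 2.0.1 without a strand option or an option for multi-mapping reads; BWA, FastQC and mm10 are named per the submitters' processing notes. The trimming and the miRBase release are not stated in these sources. Members and lists were chosen with earlier results of these data known.

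Entries were summed by ID and named by their place in GENCODE vM21 hairpins, which also gave the seeds and the GC content. edgeR 4.0.16 (R 4.3.3; quasi-likelihood test, TMM scaling, group alone as the term, and filterByExpr with min.count 10) was fitted on the whole table, with Benjamini-Hochberg adjustment at 0.05. The code was also run on simulated counts of independent miRNAs with no shared reads, which does not show how the test performs on these members. The SE is the log2 fold change divided by the square root of F. Shares carry Clopper-Pearson 95% intervals. Each tested member and the 3 untested ones with most counts are named with values; any other is said to be chosen later. Alternatives were RLE, upper quartile and library-total scaling, other filters, DESeq2 1.42.0, limma-voom (limma 3.58.1), other sums of copies, a replicate block, a GC correction and leaving out each library; DESeq2 on 3 libraries was added after seeing the data.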

Additional observations from a re-analysis of the deposited data

How the results depend on the processing

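The number of members called lower, 3 in the report, stayed at 3 with RLE scaling, library totals and all 3 other ways of summing copies. With limma-voom it was 4 of 21 tested. Of all tested miRNAs, 9.13% to 10.8% were called in either direction where the number stayed at 3, and 12.0% with limma-voom. The number of members was 7 of 21 tested with upper quartile scaling, which moved the median of all tested miRNAs from 0.064 to -0.16. It was 6 of 46 tested without a filter, 8 of 13 with the stricter filter, 6 of 21 with DESeq2 and 1 of 21 with the GC correction. Of the 8, miR-669b-5p and miR-669p-5p met the stricter filter, 10 CPM in 2 libraries, only through WT, where they were high. Their calls there thus add no support. The share of all tested miRNAs called in either direction, 10.2% in the report, was 17.4%, 12.5%, 30.8%, 20.3% and 7.68% in these 5 settings. Counts of members are to be read beside these shares, and no relation between them was tested. Without each library in turn the count was 0 to 0 by edgeR, which then called 0 to 15 miRNAs in all, so that these values say little about members. By DESeq2 it was 0 to 2, with 9.48% to 13.5% of all called. No setting called a member higher, and edgeR in the report called 4.36% of all tested miRNAs higher. The median log2 fold change of the tested members, -0.81, was -1.04 with upper quartile scaling, -0.99 with the stricter filter and -1.02 without summing, and -1.09 to -0.80 without each library (-1.11 to -0.79 by DESeq2, with -0.94 without WT replicate 2). The cluster's share kept its direction in all alternatives run. miR-669m-5p passed in 13 of 13 other settings on 4 libraries, and miR-669l-5p and miR-467e-5p in 12.

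Same-numbered libraries did not deviate together (correlation 0.0195 over 482 miRNAs), and the labels do not pair them. With the replicate number as a block, 6 of 21 members were called lower beside 24.1% of all tested miRNAs called, and 4 with the block and the GC correction (15.6% of all), where the median was -0.71; miR-669c-5p had a log2 fold change of -0.00211 with the block.

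Only members that did not pass changed sign. miR-467a-5p had -0.0071 with RLE, -0.0073 with DESeq2, -0.19 with upper quartile scaling and -0.00468 with the stricter filter. miR-467b-5p had -0.11 with upper quartile scaling. miR-669c-5p had -0.055 with RLE, -0.054 with DESeq2, -0.051 with the stricter filter, -0.24 with upper quartile scaling, -0.034 with limma-voom and -0.015 without summing. Without each library in turn, values ranged from -1.39 to 0.75 for miR-466b-3p, -0.29 to 0.23 for miR-467a-5p, -0.32 to 0.52 for miR-467b-5p, -0.31 to 0.16 for miR-669c-5p, -1.16 to 0.45 for miR-466b-5p, -0.93 to 1.56 for miR-669h-5p and -0.15 to 0.84 for miR-669a-3p. The cause of these changes was not tested. Low counts limit the 3p arms and most miR-466 and miR-297 members.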
